A study of Homo sapiens with 2 samples.

Results

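The glycolysis genes described here are SLC2A1, HK1, HK2, PFKP, PFKL, ALDOA, GAPDH, ENO1, PKM and LDHA, 10 of 19970 protein-coding genes on chromosomes 1 to 22 and X. Their peaks were all intervals of the ETV4 peak list with any base within 10 kb of the gene span, and there were 32 of these among 54389 peaks. ETV4 is a transcription factor of the ETS family. The list came from ChIP-seq, which sequences the DNA that is precipitated together with a protein. The experiment comprised 1 anti-Flag immunoprecipitate and 1 input library, both from A549, an established human NSCLC line. In these A549-shETV4 cells an shRNA lowered the cells' own ETV4, and Flag-ETV4 was supplied from a transfected plasmid, so the peaks are those of the tagged protein and not of the endogenous one. No library of untransfected cells or of cells with an empty vector was analysed here, and a peak list measures no expression, so the labelled cell type could not be checked against its marker genes. Neither library had a replicate. Hence no SD and no p-value between conditions can be given, and the values compare positions within 1 library. The supplier of the Flag antibody is CST in the study's methods and Sigma in the labels.

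Glycolysis turns glucose into pyruvate in the cytosol. Glucose enters through a transporter, is trapped by phosphorylation, is committed to the pathway by phosphofructokinase, is split by aldolase into triose phosphates, and leaves as pyruvate, which lactate dehydrogenase can reduce to lactate. Tumour cells often run this route at a high rate even where oxygen is present, and several of its steps have isoforms from separate genes that differ between tissues. ETS factors bind DNA around a core of the letters GGAA.

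All 10 genes had an ETV4 peak at the gene itself. A peak within 10 kb of the span was present in 10 of 10, against 81.9% of all protein-coding genes and 83.9% of the 15083 whose spans lay between 3855 and 131883 bp, the range of the glycolysis genes. A peak within 1 kb of a transcription start was likewise present in 10 of 10, against 64.5% of the 15811 protein-coding genes with a start in the RefSeq promoter table. Long genes and genes with many starts have more room for a peak. Among genes with a single listed start, a peak was present in 5 of 5 glycolysis genes, against 60.3%. The fold enrichment, which is the fragments over the summit plus 1 divided by the control level plus 1, was over 10 at a start in 10 of 10 genes, against 47.1%. It was over 20 in 7 of 10, against 28.8%. SLC2A1, HK2 and ENO1 were the 3 genes below that level. The 10 genes were chosen with earlier results of these data known, and no test was run on these counts.

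**Figure D1:**
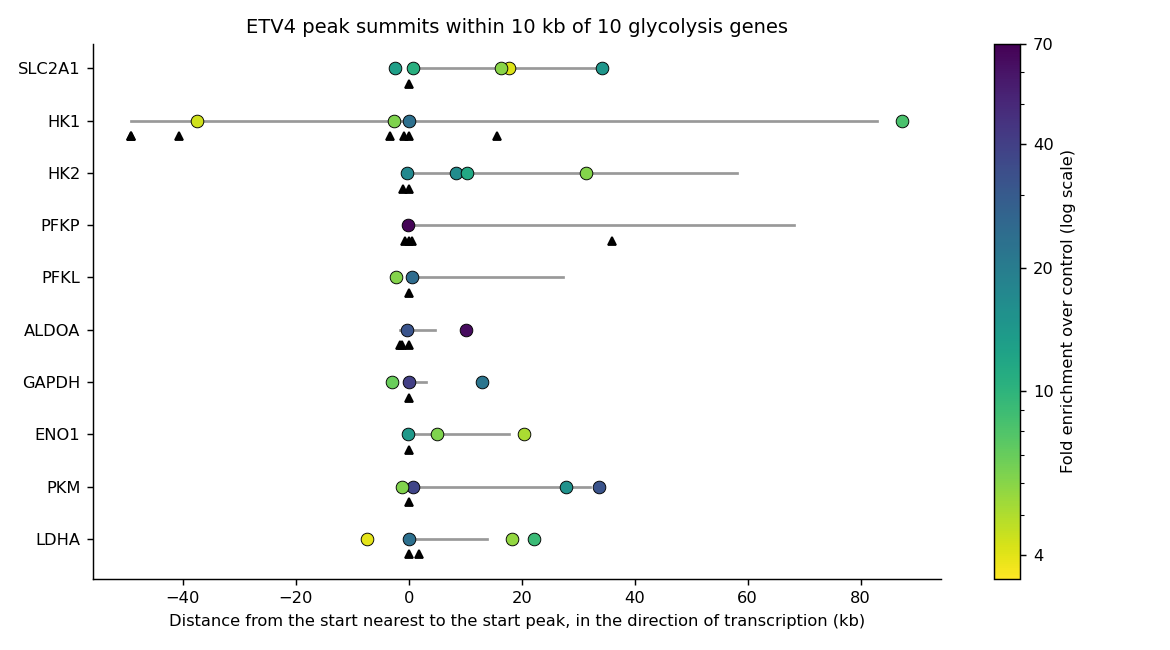
ETV4 peak summits (circles, coloured by fold enrichment on a log scale) along each glycolysis gene (grey line), as the distance in kb in the direction of transcription from the start nearest to the summit of the start peak; triangles are the listed starts. Of the 32 peaks, 18 had their summit inside the gene, 6 upstream and 8 downstream, and PFKP had a single peak.

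For each gene, the strongest peak within 1 kb of a listed start is called the start peak. The depth behind it is the pileup, the number of fragments over the summit, and its exact Poisson 95% interval covers counting error only. Over the 10 genes the median start peak had a fold of 24.0, a pileup of 87, a width of 2048 bp and a −log10 q of 94.0. Over the 10199 protein-coding genes with a start peak the medians were a fold of 17.8, a pileup of 54, a width of 1083 bp and a −log10 q of 53.7. The glycolysis genes thus lay above the middle of all genes in each measure, with 7 of 10 above the median fold and 8 of 10 above the median pileup. The control level under them was also higher, with a median of 2.55 fragments against 2.03 and 7 of 10 genes above that median, and its part in the peaks was not tested.

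At the entry of glucose, SLC2A1 encodes the transporter that supplies basal glucose uptake in most cells. Its start peak on chromosome 1 (42957030 to 42959096, 2067 bp) had a fold of 10.6, a −log10 q of 30.8 and a pileup of 42 fragments (95% interval 30.3 to 56.8). This was the lowest fold and the lowest pileup of the 10 start peaks, at the 29.6th percentile of all start peaks by fold. The summit lay 729 bp inside the gene. The same peak also came within 1 kb of the start of SLC2A1-DT, a divergent transcript, so it cannot be given to SLC2A1 alone.

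Hexokinase phosphorylates glucose and so keeps it in the cell. HK1, the isoform found in most tissues, had a start peak on chromosome 10 (69317924 to 69319658, 1735 bp) with a fold of 23.4, a −log10 q of 81.7 and a pileup of 74 fragments (58.1 to 92.9). HK2, the isoform that many tumours express, had one on chromosome 2 (74833706 to 74835735, 2030 bp) with a fold of 17.2, a −log10 q of 78.3 and a pileup of 86 fragments (68.8 to 106). The 2 measures put these isoforms in opposite orders. By fold, HK2 stood at 0.735 of HK1, whereas by pileup it stood at 1.16 times HK1, with an exact interval of 0.842 to 1.61 that includes equality. The control level was 4.05 fragments at HK2 and 2.20 at HK1, a ratio of 1.84. HK2's peak also came within 1 kb of the start of HK2-DT.

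HK1 is the gene in which the choice of start matters most. It has 7 listed starts spread over 64.6 kb, of which 3 had a peak within 1 kb and 4 had none. The start peak's summit at 69319125 was 61 bp downstream of the start at 69319064. The start at 69315769 had only a weak peak, with a fold of 6.28 and a pileup of 18 fragments (10.7 to 28.4). No peak was called within 1 kb of the starts at 69270000, 69270005, 69278496 and 69334614. The outer end of the gene is therefore not where ETV4 signal was called, and HK1 is the gene that drops out when only the outer end is used.

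Phosphofructokinase catalyses the committed step. PFKP, the platelet isoform, had the highest fold of the 10 start peaks. Its peak on chromosome 10 (3067373 to 3069366, 1994 bp) had a fold of 67.9, a −log10 q of 254 and a pileup of 154 fragments (131 to 180), and was at the 97.5th percentile of all start peaks by fold. PFKL, the liver isoform, had a start peak on chromosome 21 (44299411 to 44300986, 1576 bp) with a fold of 24.5, a −log10 q of 106 and a pileup of 98 fragments (79.6 to 119). PFKP stood above PFKL by every measure, at 2.77 times by fold, 2.38 times by −log10 q and 1.57 times by pileup (exact interval 1.21 to 2.05). Part of the gap in fold lies in the denominator. The control level at PFKP was 1.28 fragments, the lowest level of the whole list, and that at PFKL was 3.04. PFKP's summit was 84 bp upstream of the start at 3068627, and its peak came within 1 kb of the starts of PFKP-DT and LOC124902536 as well. The other start of PFKP, at 3104609, had no peak within 1 kb.

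Aldolase and glyceraldehyde phosphate dehydrogenase form the middle of the pathway. ALDOA, the aldolase of muscle and of most proliferating cells, had a start peak on chromosome 16 (30064272 to 30067762, 3491 bp) with a fold of 32.2, a −log10 q of 144 and a pileup of 119 fragments (98.6 to 142). The interval spanned all 3 listed starts of the gene, which lie at 30064279, 30064497 and 30065760, and the summit also lies in LOC112694756. GAPDH had the deepest start peak of the set. That peak on chromosome 12 (6533377 to 6535929, 2553 bp) had a fold of 40.2, a −log10 q of 288 and a pileup of 229 fragments (200 to 261), at the 97.2nd percentile of all start peaks by pileup. The control level at GAPDH, 4.73 fragments, was also the highest of the 10, at the 97.1st percentile. The summit was 19 bp downstream of the gene's only listed start, which itself lies 747 bp inside the outer end of the gene.

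The last steps yield pyruvate and lactate. ENO1, the enolase of most tissues, had a start peak on chromosome 1 (8877290 to 8879469, 2180 bp) with a fold of 14.0 and a −log10 q of 40.2, with 46 fragments (33.7 to 61.4) over the summit. Only SLC2A1 was lower, and the peak came within 1 kb of the start of ENO1-AS1. PKM, the pyruvate kinase of tumours and most adult tissues, had the widest start peak (chromosome 15, 72228442 to 72231936, 3495 bp), with a fold of 37.9, a −log10 q of 122 and a pileup of 88 fragments (70.6 to 108). Its summit lay 844 bp downstream of the listed start, the farthest of the set. The splice forms of PKM share this start region, so the peak does not separate them. LDHA, the subunit of lactate dehydrogenase that favours lactate formation, had a start peak on chromosome 11 (18394104 to 18395700, 1597 bp) with a fold of 23.5, a −log10 q of 78.1 and a pileup of 70 fragments (54.6 to 88.4). Its summit was 19 bp downstream of the first listed start.

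**Figure D2:**
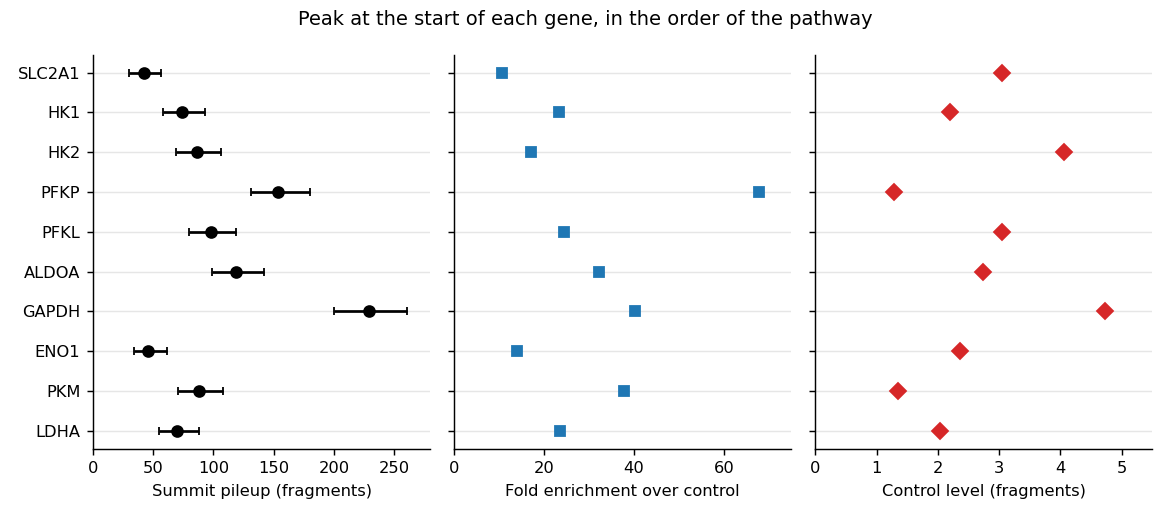
Start peak of each glycolysis gene in the order of the pathway, with the summit pileup in fragments and its exact Poisson 95% interval (left), the fold enrichment over control (middle) and the control level in fragments (right). PFKP combined the highest fold, 67.9, with the lowest control level, 1.28, and GAPDH combined the highest pileup, 229, with the highest control level, 4.73.

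Ordered by pileup, the genes ran GAPDH, PFKP, ALDOA, PFKL, PKM, HK2, HK1, LDHA, ENO1 and SLC2A1. Of the 9 pairs of neighbours in that order, the intervals overlapped in 8, and GAPDH and PFKP were the only neighbours whose intervals did not. By fold the order was PFKP, GAPDH, PKM, ALDOA, PFKL, LDHA, HK1, HK2, ENO1 and SLC2A1. The lowest pair, SLC2A1 and ENO1, was the same in both orders, and neither order followed the sequence of the reactions.

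The start peaks were wide. Each of the 10 was 1500 bp or wider, against 26.5% of all start peaks, and their widths lay between the 76.7th and the 99.0th percentile. Depth and width go together in the list, and of the 5950 start peaks whose pileups lay in the range of the glycolysis genes, 42 to 229 fragments, 38.4% were 1500 bp or wider. The width held for weak and strong peaks alike. SLC2A1, at the 39.4th percentile by pileup, was at the 90.3rd by width, and ENO1, at the 43.4th by pileup, was at the 92.1st. PFKL and LDHA were the narrowest, at the 76.7th and 77.5th percentiles. The threshold of 1500 bp was chosen after the widths had been seen and lies just under the narrowest of the 10, 1576 bp. The same limit holds for the counts at this threshold in the other lists below.

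**Figure D3:**
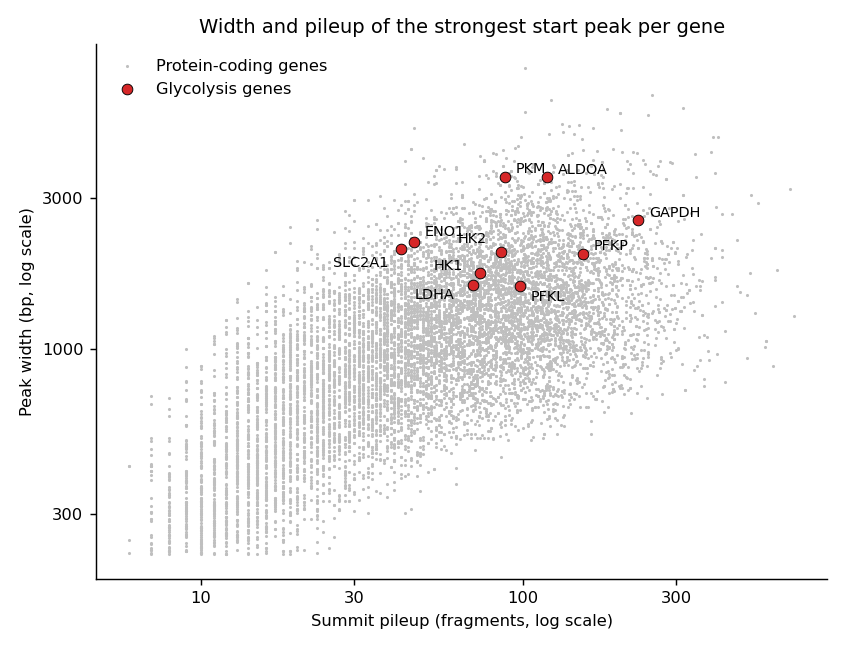
Width in bp against summit pileup in fragments, both on log scales, for the start peak of each protein-coding gene (grey) and of the glycolysis genes (red). The red points run from 1576 bp at PFKL to 3495 bp at PKM and lie in the upper part of the cloud at their pileups.

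Summits lay close to a start in some of the genes and well inside the transcribed region in others. The summit was within 100 bp of a listed start in 5 of 10 genes, namely HK1, PFKP, GAPDH, ENO1 and LDHA, against 30.9% of all start peaks. A gene with more listed starts has more room for this, and HK1 has 7 and PFKP 4. Among the 5 genes with a single listed start, only GAPDH and ENO1 were within 100 bp. The share over all genes with a single start was not computed. The median distance was 226 bp, against 196 bp over all. In SLC2A1, PFKL and PKM the summit was 729, 515 and 844 bp downstream of the only listed start. The HK2 summit lay between its 2 starts, 675 bp past the first and 368 bp before the second. The start peaks of 4 genes, SLC2A1, HK2, PFKP and ENO1, also came within 1 kb of the start of another gene, against 37.1% of all start peaks.

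To show what sequence lies at these peaks, 5 promoter windows are given 5′ to 3′ on the strand of the gene, and hold the 250 bases before the listed start and the 50 bases from it on. They are taken from RefSeq, and capitals mark each GGAA or its reverse complement TTCC. The first 4 are those that hold the summit of the start peak, which falls on base 167 in PFKP, 270 in GAPDH, 213 in ENO1 and 270 in LDHA, where the start is base 251. SLC2A1 is given because its window holds no GGAA on either strand. Its summit lies outside the window, 729 bp downstream of the start, so the sequence under that summit is not shown. SLC2A1 also had the lowest fold, and a link between the fold and these letters was not tested.
PFKP (GRCh38.p14, chr10:3068377-3068676, plus strand): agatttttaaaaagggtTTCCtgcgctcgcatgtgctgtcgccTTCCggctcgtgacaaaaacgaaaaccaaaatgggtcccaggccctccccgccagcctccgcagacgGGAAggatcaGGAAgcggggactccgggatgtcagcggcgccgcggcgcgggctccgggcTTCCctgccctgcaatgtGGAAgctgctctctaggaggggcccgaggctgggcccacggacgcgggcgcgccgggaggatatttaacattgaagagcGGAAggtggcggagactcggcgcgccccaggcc
GAPDH (GRCh38.p14, chr12:6535014-6535313, plus strand): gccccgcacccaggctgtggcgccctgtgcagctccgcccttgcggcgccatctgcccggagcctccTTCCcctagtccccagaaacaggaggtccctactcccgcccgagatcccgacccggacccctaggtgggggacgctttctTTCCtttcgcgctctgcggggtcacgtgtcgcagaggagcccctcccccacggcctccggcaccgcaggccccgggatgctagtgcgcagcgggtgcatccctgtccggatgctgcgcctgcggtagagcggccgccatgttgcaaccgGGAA
ENO1 (GRCh38.p14, chr1:8878637-8878936, minus strand): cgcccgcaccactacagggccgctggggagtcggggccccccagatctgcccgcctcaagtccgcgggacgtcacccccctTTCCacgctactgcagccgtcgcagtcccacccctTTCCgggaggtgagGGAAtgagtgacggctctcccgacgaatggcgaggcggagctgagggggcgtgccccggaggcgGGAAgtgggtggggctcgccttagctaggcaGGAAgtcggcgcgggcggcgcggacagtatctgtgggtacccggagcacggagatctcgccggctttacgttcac
LDHA (GRCh38.p14, chr11:18394313-18394612, plus strand): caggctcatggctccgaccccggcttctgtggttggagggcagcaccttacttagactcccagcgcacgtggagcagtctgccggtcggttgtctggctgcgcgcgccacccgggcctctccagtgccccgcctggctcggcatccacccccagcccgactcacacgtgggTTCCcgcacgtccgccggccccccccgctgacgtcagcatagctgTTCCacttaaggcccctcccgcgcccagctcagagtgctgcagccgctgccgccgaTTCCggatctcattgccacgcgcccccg
SLC2A1 (GRCh38.p14, chr1:42958819-42959118, minus strand): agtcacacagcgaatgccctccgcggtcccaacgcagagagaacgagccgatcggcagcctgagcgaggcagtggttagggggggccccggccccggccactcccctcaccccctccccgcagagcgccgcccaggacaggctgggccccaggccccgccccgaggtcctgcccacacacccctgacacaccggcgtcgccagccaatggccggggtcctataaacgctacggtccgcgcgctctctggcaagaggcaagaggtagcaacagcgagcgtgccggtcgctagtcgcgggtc

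In each of the 4 windows that hold a summit, a GGAA lay within 50 bp of it. The centre of the nearest GGAA was 4 bp from the summit in LDHA, 5 bp in PFKP, 14 bp in ENO1 and 28 bp in GAPDH. These letters are common, however. GGAA was found on either strand in 95.4% of the 34789 promoter windows of the table, and within 50 bp of the summit in 80.0% of the 4983 windows that hold one. The longer CCGGAA, which contains GGAA, was within 50 bp of the summit only in LDHA, 5 bp away, against 30.1% of windows that hold a summit.

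The promoter windows nearest to the start peaks, a single window per gene, were searched on both strands in all 10 genes. The windows set beside them, here and in the paragraphs before and after, include non-coding genes and several starts of the same gene. No share over protein-coding genes alone is given. GGAA was present in 9 of 10, with 7 matches in HK2, 7 in PFKP, 6 in ALDOA and none in SLC2A1. CCGGAA was present in 5 of 10 (HK1, HK2, PFKP, ENO1 and LDHA), against 17.2% of all windows and 46.2% of those that hold a summit. CGGAAG, which also contains GGAA, was present in 4 of 10 (PFKP, PFKL, ALDOA and PKM), against 19.4% and 49.6%. Over all 10 windows both counts were near the shares of windows that hold a summit, although only 4 of the 10 hold one. Among these 4, CCGGAA was in PFKP, ENO1 and LDHA, and CGGAAG was in PFKP alone. CCGGAAGT, which contains both, was in none of the 10 windows, against 4.12% of all windows and 15.7% of those with a summit. The 6 windows without a summit say nothing of the sequence under their own summits, which lie outside the stretch that could be read.

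Letters of other factors were read in the same windows. CACGTG, the E-box read by MYC and by other basic helix-loop-helix factors, was present in 3 of 10, with 2 matches in HK2, 1 in GAPDH and 2 in LDHA, against 7.24% of all windows and 8.23% of those with a summit. None of these lay within 50 bp of a summit in GAPDH or LDHA, where the nearest were 97 and 103 bp away. ACGTG, which lies within CACGTG and is the core of hypoxia response elements, was present in 4 of 10, against 21.4% of all windows and 25.8% of those with a summit, and only ALDOA had it without an E-box. GCGTG, the other such core, was in 7 of 10, against 36.5% and 50.3%. GGGCGG, the GC box, was in 8 of 10, against 44.9% of all windows and 74.8% of those with a summit. That count was near the latter share, although only 4 of the 10 windows hold a summit. Among these 4, GAPDH and ENO1 had the GC box, and PFKP and LDHA did not. TGACTCA, the AP-1 letters, was in none, against 4.93% and 4.21%. All 10 windows were rich in G and C, at 65.3% to 78.3% with a median of 70.7%, against a median of 58.7%. The ratio of observed to expected CpG was 0.761 to 0.984, against a median of 0.578. Both of these medians are over all windows, of coding and non-coding genes and with or without a summit. None was computed for the windows that hold a summit. The part of base composition in the motif counts was not tested.

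**Figure D4:**
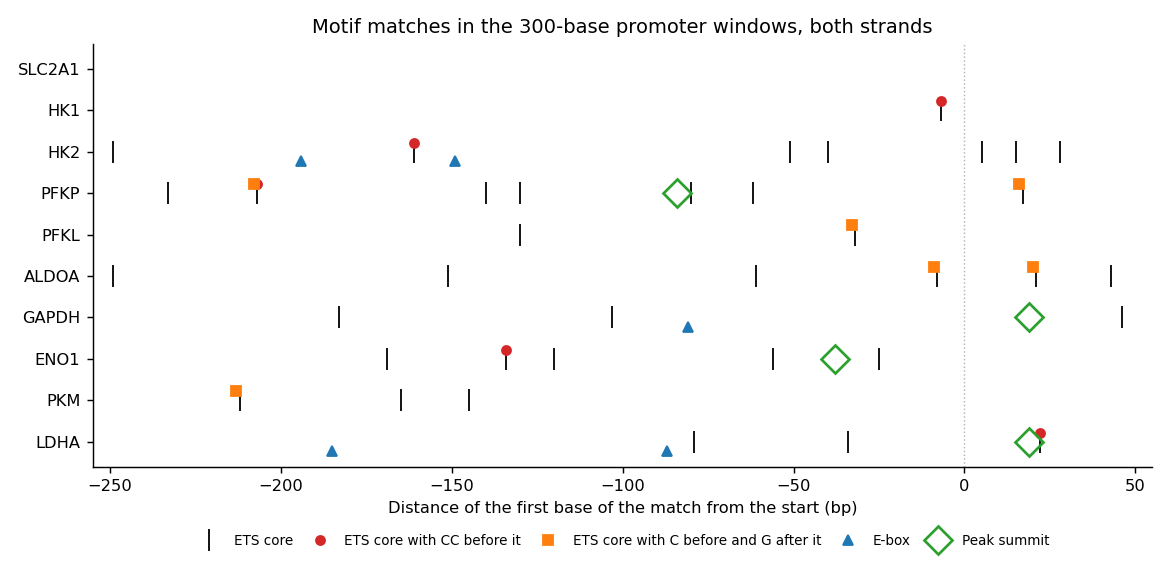
Matches on either strand in the 300-base promoter window of each gene, as the distance in bp of the first base of the match from the listed start, with ETS core letters (bars), ETS core letters with further bases (circles and squares), E-boxes (triangles) and, in the 4 windows that hold one, the peak summit (diamonds). SLC2A1 has no ETS core match, and the 4 summits each have one within 50 bp.

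Away from their own starts, the genes had weaker and narrower peaks. Of the 32 peaks, 11 lay within 1 kb of a start of the gene and 21 did not. The 11 had a median fold of 23.5 (6.28 to 67.9), a median pileup of 86 fragments (18 to 229) and a median width of 2030 bp (595 to 3495). The 21 had a median fold of 6.92 (3.94 to 64.3), a median pileup of 21 fragments (8 to 150) and a median width of 503 bp (248 to 1496). These 21 were spread over 9 of the 10 genes, PFKP having its start peak only. The start peak was the strongest peak within 10 kb in 8 of 10 genes, the exceptions being ALDOA and SLC2A1. The share over all protein-coding genes was not computed for this count or for the 9 of 10 above. Neither is read as particular to the glycolysis genes. Start peaks were also the stronger ones in the whole list, with a median fold of 17.8 over protein-coding genes against 9.63 over all peaks.

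The 2 strongest distant peaks each lay at the start of another gene. The strongest near ALDOA (chromosome 16, 30075532 to 30076821) had a fold of 64.3, a −log10 q of 242 and a pileup of 150 fragments, and its summit was 55 bp from the start of PPP4C, a protein phosphatase subunit. A peak downstream of PKM (chromosome 15, 72197145 to 72198538) had a fold of 32.4 and a pileup of 73 fragments, with its summit 195 bp from the start of GRAMD2A. A peak inside PKM (chromosome 15, 72203125 to 72203627, 503 bp), with a fold of 15.3 and a pileup of 34 fragments, had its summit 27788 bp from the start of PKM and 5615 bp from that of GRAMD2A. Downstream of LDHA, the summit of a weak peak with a fold of 5.69 and a pileup of 12 fragments was 560 bp from the start of LDHC, the lactate dehydrogenase of testis. In all, 7 of the 32 summits were nearer to a listed start of another gene than to one of the glycolysis gene. Apart from the peak inside PKM, such peaks belong to the set by distance alone.

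Further peaks had no nearer start than one of the glycolysis gene. Downstream of SLC2A1, a peak (chromosome 1, 42923671 to 42925166, 1496 bp) had a fold of 14.5 and a pileup of 43 fragments (31.1 to 57.9), with its summit 721 bp past the gene's end and 34236 bp from its start. Its pileup was within counting error of that of the SLC2A1 start peak, 42 fragments. HK2 had 3 further peaks inside the gene. The strongest (chromosome 2, 74843197 to 74843983, 787 bp) had a fold of 16.5 and a pileup of 63 fragments (48.4 to 80.6) at 8450 bp from the nearest start, against 17.2 and 86 at the start peak, so these intervals overlapped too. The next had a fold of 11.6 and a pileup of 34 fragments at 10369 bp. The weakest of the 32 lay 7304 bp upstream of LDHA, with a fold of 3.94, a −log10 q of 3.04 and a pileup of 8 fragments (3.45 to 15.8).

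The remaining distant peaks were mostly weak. Upstream of SLC2A1, inside SLC2A1-DT, a peak had a fold of 13.1 and a pileup of 31 fragments, and 2 more inside SLC2A1 had folds of 4.11 and 5.95. The peaks upstream of PFKL, in AIRE, and upstream of GAPDH, in GAPDH-DT, had folds of 6.13 and 6.92, and those around ENO1 folds of 5.13 and 6.22. HK1 had a peak inside the gene with a fold of 4.37 and another downstream, in TACR2, with a fold of 8.32. The last peak inside HK2, the peak upstream of PKM and the peak farthest downstream of LDHA, in LDHC, had folds of 6.13, 6.14 and 9.20. A peak of 902 bp in IFFO1, with a fold of 21.8 and a pileup of 58 fragments, was the peak just inside the window, its nearest base being 9209 bp from GAPDH. The nearest peak outside the window was 10267 bp from ALDOA, 1383 bp wide, with a fold of 21.1 and a pileup of 77 fragments. The edge of the window thus separates peaks of like size.

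Counted per length, the glycolysis genes had 5.38 peaks per 100 kb over 595 kb of spans with their flanks, against 2.90 over all protein-coding genes. No density was computed for genes of like span, and the part of gene length in this difference was not tested. The density varied among them more than 10-fold. It was highest at GAPDH, with 12.6 from 3 peaks, and LDHA, with 11.8 from 4 peaks. It was lowest at HK1, with 2.63 from 4 peaks, and PFKP, with 1.12 from 1 peak. No interval was computed for these densities, which rest on few peaks. Short genes have a larger share of their window near a start, and GAPDH, the shortest of the set, spans 3855 bp, whereas HK1, the longest, spans 131883 bp. The strongest peak within 10 kb had a median fold of 24.0 in the glycolysis genes and of 22.3 in all protein-coding genes with a peak there.

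Other genes of the pathway, 31 in all, were read the same way. A peak within 10 kb was present in 25, a share near the 81.9% of all protein-coding genes, and none was called in 6, namely SLC2A2, SLC2A3, PGK2, PGAM2, PFKFB4 and PDK4. Of the 25 with a listed start, 15 had a peak within 1 kb of it, against 64.5% of all, with a median fold of 17.9 and a median width of 1247 bp, and 5 of the 15 were 1500 bp or wider. The 10 without a start peak were SLC2A2, HK3, HKDC1, ALDOC, GAPDHS, PGK2, PGAM2, PKLR, PFKFB4 and PDK4. Starts of the other 6 genes of the list were not analysed here.

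Several further genes of the pathway had start peaks as strong as those of the glycolysis genes or stronger. PFKM, the muscle isoform of phosphofructokinase, had a fold of 142 and a pileup of 571 fragments (525 to 620), above both PFKP and PFKL, but its peak also came within 1 kb of the start of SENP1, a SUMO protease. SLC16A3, which exports lactate, had a fold of 91.5 and a pileup of 278 fragments (246 to 313). PGK1, the phosphoglycerate kinase of somatic cells, had 49.9 and 136 fragments (114 to 161), and PFKFB3, which makes an activator of phosphofructokinase, had 42.3 and 112 fragments (92.2 to 135).

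The start peaks of the remaining steps covered a wide range. TPI1, triose phosphate isomerase, had a fold of 20.6 and a pileup of 62 fragments, and GPI, glucose phosphate isomerase, 16.2 and 83. The neuronal enolase ENO2 had 15.3 and 71 fragments, close to the fold of 14.0 at ENO1. The peak assigned to ENO3, of muscle, with a fold of 38.5, had its summit 2584 bp from that gene's start and reached the start of PFN1, a profilin. LDHB, whose product favours pyruvate formation, had a fold just under 10 and a pileup of 36 fragments (25.2 to 49.8), against 70 fragments (54.6 to 88.4) at LDHA, so the intervals of these subunits did not overlap. PGAM1, phosphoglycerate mutase, had a fold of 7.33, a pileup of 19 fragments and a summit 1361 bp from its start, and its peak also reached the start of LOC644215. Of the pyruvate dehydrogenase kinases, which limit the entry of pyruvate into the citrate cycle, PDK1, PDK2 and PDK3 had folds of 17.9, 25.7 and 14.9 and pileups of 47, 126 and 33 fragments.

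**Figure D5:**
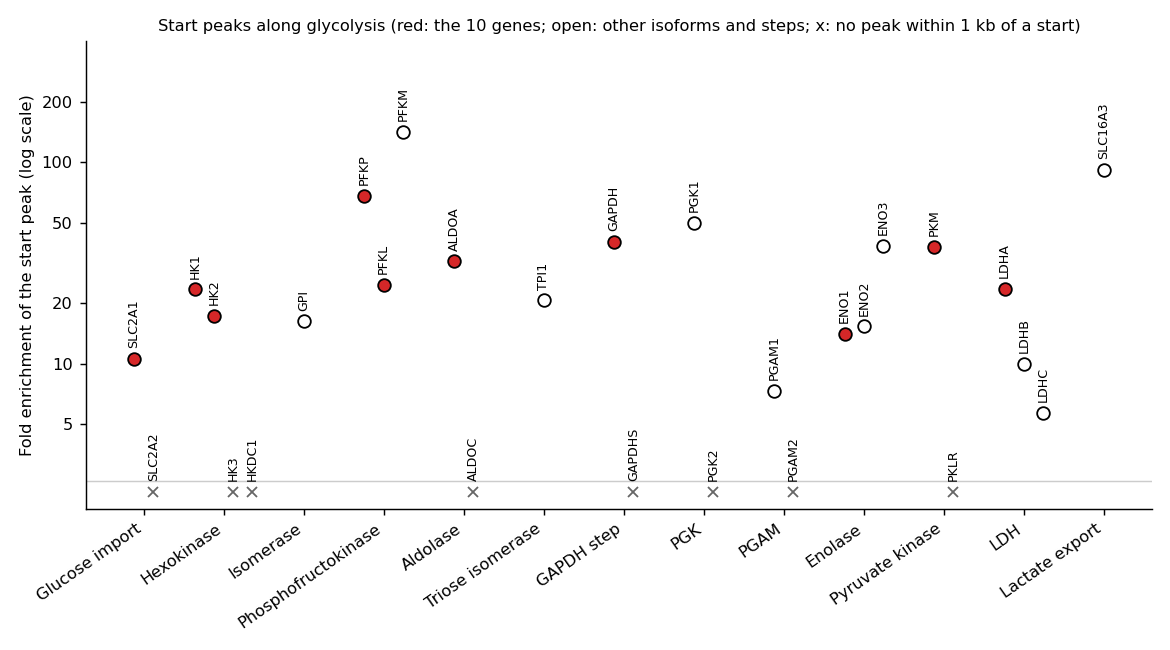
Fold enrichment of the start peak (log scale) at each step of glycolysis, for the 10 glycolysis genes (red) and for other isoforms and steps with a listed start (open); crosses under the grey line mark genes with no peak within 1 kb of a start. Among genes with a start peak the range runs from 5.69 at LDHC to 142 at PFKM, and among the 10 from 10.6 at SLC2A1 to 67.9 at PFKP.

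The genes that carry pyruvate onward in the mitochondrion were read for comparison. Of 22 genes of pyruvate import, pyruvate dehydrogenase and the citrate cycle, 21 had a peak within 10 kb, against 81.9% of all protein-coding genes, and 17 of the 19 with a listed start had a start peak, against 64.5%. These had a median fold of 17.5, a median pileup of 52 fragments and a median width of 956 bp, and 3 of the 17 were 1500 bp or wider. In the 10 glycolysis genes the corresponding medians were 24.0, 87 fragments and 2048 bp. The lists were not tested against each other.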

How the data were processed

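ChIP-seq was performed on 1 anti-Flag immunoprecipitate and 1 input library, with groups taken from the sample labels, and no unmanipulated control library was analysed here. The authors deposited a narrowPeak list called on the single immunoprecipitate. Its deposited columns give the fold enrichment over control at the summit as a ratio, the summit offset, −log10 of the q-value and of the p-value, and a display score, which was not used. The submitters' processing notes name Bowtie2 2.4.1, SAMtools, MACS2 2.2.7.1, deepTools 3.5.0 and hg38. The study's text gives a fold change over 2 as the criterion for its peaks. Other parameters and the treatment of duplicate reads are not given in the sources used here, and the input's own signal was not analysed here. Duplicates, if kept, would raise pileups.

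From each fold and −log10 p, taken as a Poisson tail with a pseudocount of 1, the pileup and control level at the summit were computed. All peaks gave a whole pileup to within 0.01. The median pileup was 26 fragments (6 to 7664), which sets the precision of a peak. The lowest −log10 q was 1.30. Control levels had a floor of 1.28.

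Gene spans and strands came from RefSeq (GRCh38.p14), all 10 genes were matched by symbol, and starts were listed for 15811 of 19970 protein-coding genes. Positions are 1-based. A start peak is the strongest by fold with any base within 1 kb of a listed start. Promoter windows of 300 bases were searched on both strands. No genome sequence was read elsewhere. The named genes are the glycolysis genes, the other pathway list (citrate cycle genes as counts only) and the gene nearest to a summit or with a start within 1 kb of a peak. Members and lists were chosen with earlier results of these data known. No test was run. Functions were tested on simulated data. The alternatives were other windows, thresholds of fold and q, definitions of overlap, and pileup or −log10 q in place of fold. Python 3.11.15 was used with pandas 2.3.3, numpy 2.4.6, matplotlib 3.10.9 and scipy 1.17.1.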

Additional observations from a re-analysis of the deposited data

How the results depend on the processing

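No paired analysis was possible because the peak list holds a single immunoprecipitate and no result comes from a test between groups. A peak within 10 kb and a peak within 1 kb of a start were found in 10 of 10 glycolysis genes under every alternative, with 3 exceptions: at a fold over 20 the count was 7 for both, with the outer end of the gene in place of the listed starts it was 9, and with summits within 500 bp of a start, an alternative chosen after seeing the data, it was 7. The number of peaks, 32, was 19 when only the gene itself was searched, 18 at a fold over 10 and 10 at a fold over 20. The density of 5.38 peaks per 100 kb was 4.87 at a fold over 5, 3.02 at a fold over 10, 4.81 for the gene itself and 4.80 with 25 kb flanks. The median of the strongest peak, a fold of 24.0, was 87 as pileup and 94.0 as −log10 q, on other scales. Of the other pathway genes, 25 had a peak within 10 kb and 15 within 1 kb of a start. The ratio of HK2 to HK1 turned from 0.735 by fold to 1.16 by pileup, and that of PFKP to PFKL went from 2.77 to 1.57. The control levels in the denominator differ within both pairs. With 1 library, counting error is the only error that could be given, and a pileup of 42 fragments leaves an interval of 30.3 to 56.8.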
